A study of Mus musculus with 30 samples.

Results

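The vitamin D receptor (VDR) and the retinoid X receptor (RXR) were listed together, with none of 7 other transcription factors, at 746 genomic intervals of 3T3-L1 cells. These regions were chosen by one rule. The same interval on chromosomes 1 to 19 or X had to be present in the VDR list and in the RXR list, and absent from the lists of ATF2, ATF7, cJun, FOSL2, JunB, KLF4 and KLF5. They made up 9.43% (95% exact interval 8.79 to 10.1) of the 7914 intervals listed for both receptors, and 2.15% of the 34724 intervals found in any of the 9 lists.

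3T3-L1 is a mouse fibroblast line that differentiates into fat cells when treated with hormones. All libraries came from cells induced after confluence and harvested at 4 h. The inducers were the glucocorticoid dexamethasone (1 μM), isobutylmethylxanthine (0.5 mM), a phosphodiesterase inhibitor, and insulin (1 μg/ml), with fetal calf serum at 10%. The labels list no vitamin D or retinoid among the inducers, and they name no RXR subtype for the RXR antibody. Binding was mapped by chromatin immunoprecipitation with sequencing (ChIP-seq), with 1 library per factor and no untreated sample among the lists used here.

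VDR is a nuclear receptor activated by the hormonal form of vitamin D. It binds DNA mainly as a heterodimer with RXR, typically at direct repeats of a short hexamer half-site. RXR is also the partner of other nuclear receptors, among them the retinoic acid receptors, the thyroid hormone receptors and PPARγ, the main regulator of fat cell formation, so RXR can occupy DNA without VDR. Active vitamin D is known to restrain differentiation of 3T3-L1 cells when it is given early. Of the other factors, ATF2, ATF7 and the AP-1 subunits cJun, JunB and FOSL2 are dimeric bZIP proteins, and KLF4 and KLF5 are Krüppel-like zinc-finger factors.

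The deposited lists hold positions alone. Each interval was 400 bp long, with no score, read number or control value, so sequencing depth is unknown. The VDR list held 11796 intervals and the RXR list 12082. The 7 other lists held between 5876 (KLF4) and 17120 (KLF5). All lists drew on 1 common set of intervals, and an interval missing from a list may have carried reads below the authors' threshold. "Without other factors" therefore means not listed. Positions are given 1-based in the mouse build mm9; the sequence and the genes at these positions were not analysed here. With 1 library per factor, no test between conditions or cultures was possible. The exact (Clopper-Pearson) 95% intervals of shares cover counting error only and treat neighbouring intervals as independent.

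Regions where both receptors were listed usually carried other factors as well. Among the 7914 VDR and RXR intervals, 746 had no other factor, 1436 had 1, 1364 had 2, 1307 had 3, 1284 had 4, 715 had 5, 558 had 6 and 504 had all 7. Just outside the rule stood the 1436 intervals with a single additional factor, and KLF5 was that factor at 1102 of them (76.7%, 95% exact interval 74.5 to 78.9). JunB was the additional factor at 124, KLF4 at 79, cJun at 62, ATF2 at 40, ATF7 at 21 and FOSL2 at 8. The number of regions without other factors thus rested on the KLF5 list more than on any other: it was 1848 when KLF5 was not counted, against 754 to 870 when any one of the other 6 lists was not counted. These counts follow from the rule and describe the choice.

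VDR and RXR were most often found apart where no other factor was listed. At intervals with none of the 7 other factors, 746 of 2385 VDR intervals carried RXR (31.3%, 95% exact interval 29.4 to 33.2), against 60.3% (58.3 to 62.3) of the 2381 VDR intervals with 1 other factor and 97.5% (95.7 to 98.7) of the 517 with all 7. From the side of RXR, 34.7% (32.7 to 36.8) of 2147 intervals without other factors carried VDR, against 57.3% (55.4 to 59.3) with 1 other factor. Of the 3786 intervals listed for a receptor and nothing else, 19.7% had both receptors, 43.3% had VDR alone (1639) and 37.0% had RXR alone (1401).

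**Figure D1:**
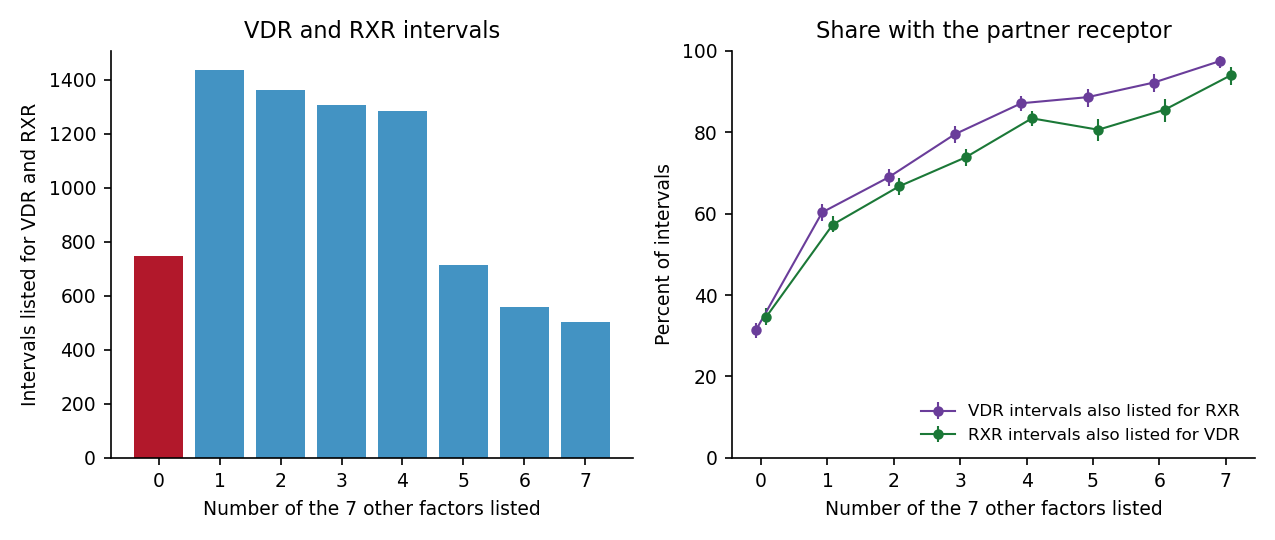
The left panel plots the number of intervals listed for both VDR and RXR by how many of the 7 other factors were listed there, with the 746 regions without other factors in red. The right panel plots the percent of VDR intervals also listed for RXR and of RXR intervals also listed for VDR at each number of other factors, with 95% exact intervals; both shares are lowest with no other factor, at 31.3% and 34.7%.

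Set among all pairs of factors, the receptor pair without other factors was a frequent combination. Each of the 36 possible pairs occurred without the other 7 factors, at 6948 intervals in total, and VDR with RXR accounted for 10.7% of these. Only ATF2 with ATF7 was more frequent, at 1317 intervals. KLF5 with RXR had 629, ATF2 with KLF5 580, KLF5 with VDR 542, cJun with JunB 435 and KLF4 with KLF5 353. As a share of all intervals that a pair had in common, the receptor pair without other factors (9.43%, 95% exact interval 8.79 to 10.1) stood close to cJun with JunB (8.80%, 8.02 to 9.62), with overlapping intervals. It was below ATF2 with ATF7 (27.1%, 25.8 to 28.4) and ATF2 with KLF5 (11.4%, 10.6 to 12.3).

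The rows of the lists were not sorted by position, and the regions without other factors stood late in them. Position in a list is given as the row percentile, where 0 is the first row and 100 the last. In the VDR list the median row percentile was 71.3 for the 746 regions (quartiles 53.7 and 84.9), against 35.5 for the 7168 other VDR and RXR intervals (17.2 and 57.6). In the RXR list the medians were 71.1 and 34.9. The difference was 35.8 points in the VDR list and 36.2 in the RXR list. It had the same sign on 20 of 20 chromosomes in both lists, from 23.7 points on chromosome X to 44.7 on chromosome 6 in the VDR list. Both lists hold their shared intervals in the same order, as do all 36 pairs of lists, so the values of VDR and RXR are 1 measurement and not 2.

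The first decile (10% of the rows) of the VDR list held 12 of the 746 regions (1.61%), against 1042 of the other VDR and RXR intervals (14.5%); over all VDR and RXR intervals the share in the first decile was 13.3%. The last decile held 111 of the regions (14.9%), against 137 of the others (1.91%), with 3.13% over all VDR and RXR intervals. Read along the list, regions without other factors made up 1.14% of the VDR and RXR intervals in the first decile (95% exact interval 0.590 to 1.98), 6.40% in the fifth (4.87 to 8.23) and 44.8% in the last (38.5 to 51.2). The share was higher in each decile than in the one before it.

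The row changed step by step with the number of other factors. The median row percentile in the VDR list was 71.3 with none of the 7 others, 57.4 with 1, 42.9 with 2, 36.9 with 3, 28.6 with 4, 26.5 with 5, 20.7 with 6 and 12.1 with all 7. The 95% intervals of neighbouring medians overlapped for 4 and 5 other factors (26.0 to 30.9 and 24.6 to 28.3) and at no other step. VDR intervals with neither RXR nor another factor stood later still than the regions with both receptors, at a median of 83.9, and RXR alone stood at 84.3 in its own list. Against the intervals with 1 or 2 other factors, the difference of the 746 regions was 21.9 points in the VDR list and 22.3 in the RXR list.

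The sources used here do not say what the row order stands for. If it came from the same signals that decided the listing, it is not independent of the rule, and the late rows are given as a description. They were not particular to the receptors either: in 36 of 36 pairs, intervals with the pair and no other factor had a later median row in both lists than the intervals where the pair met other factors. The difference was 40.6 points in the cJun list and 42.1 in the JunB list for cJun with JunB, and 23.6 in the ATF2 list and 25.2 in the ATF7 list for ATF2 with ATF7.

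**Figure D2:**
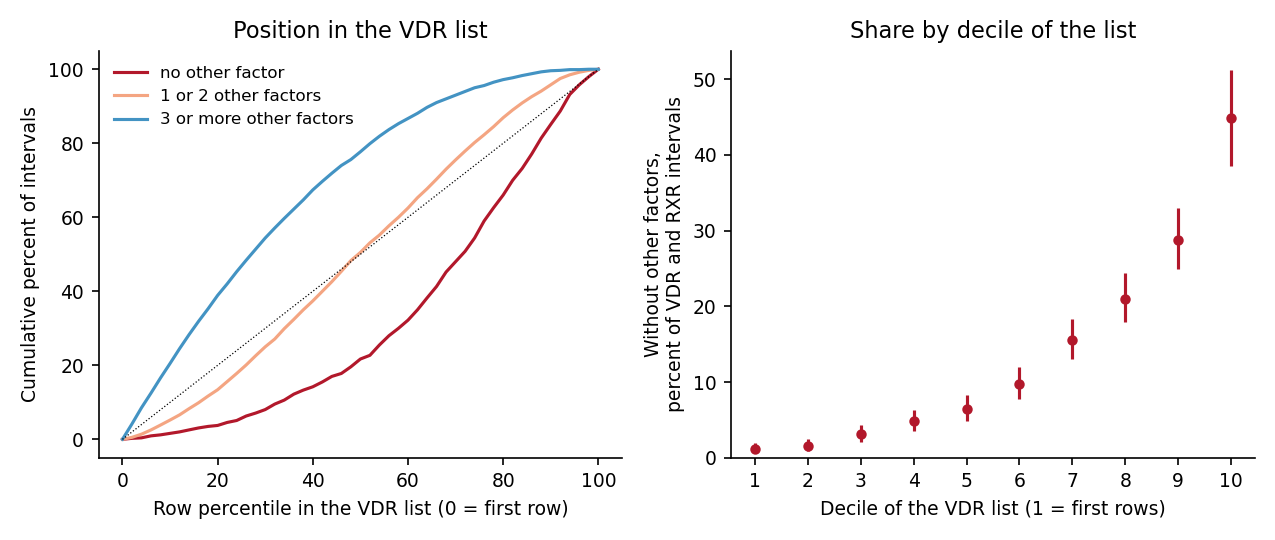
The left panel plots the cumulative percent of VDR and RXR intervals against the row percentile in the VDR list, for intervals with no other factor, with 1 or 2 and with 3 or more; the dotted line marks an even spread over the list, and the intervals with no other factor lie below it, with a median at 71.3. The right panel plots the regions without other factors as a percent of VDR and RXR intervals in each decile of the VDR list, with 95% exact intervals, from 1.14% in the first decile to 44.8% in the last.

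The lower share of joint listing without other factors was also seen within each stretch of the list. In every decile of the VDR list, VDR intervals with no other factor carried RXR less often than VDR intervals with exactly 1 other factor. In the first decile the shares were 20.0% of 60 intervals (95% exact interval 10.8 to 32.3) and 62.3% of 77 (50.6 to 73.1). In the seventh they were 46.3% of 255 (40.0 to 52.6) and 67.4% of 319 (62.0 to 72.5), and in the ninth 32.4% of 442 (28.0 to 36.9) and 47.4% of 346 (42.0 to 52.8). In the last they were 15.2% of 731 and 26.5% of 294. The share with RXR among VDR intervals without other factors was highest in the fourth decile (46.9%, 36.8 to 57.3) and the seventh.

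The 3 regions that came first in the VDR list lay on chromosome 6 from 30504831 to 30505230 (row 55), on chromosome 4 from 118846784 to 118847183 (row 71) and on chromosome 6 from 48735033 to 48735432 (row 341). The last 3 lay on chromosome 11 from 18435198 to 18435597 (row 11738), on chromosome 2 from 178143726 to 178144125 (row 11781) and on chromosome 3 from 27576821 to 27577220 (row 11793). The last of these was also the final row of the RXR list, row 12082. The third region from the end had an ATF2 interval with its midpoint 310 bp away, and the final one had a neighbour 320 bp away that was listed for ATF7, FOSL2, KLF5, VDR and RXR. A region counted as free of other factors can thus overlap an interval that carries them.

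Distance to hotspots was compared next. A hotspot is an interval listed for 5 or more of the 9 factors; there were 5623, or 16.2% of all intervals. Distances run between midpoints, and an interval that was itself a hotspot was measured to the nearest other one. The median distance was 57.0 kb for the 746 regions (95% interval of the median 49.3 to 67.9), against 37.8 kb (35.5 to 40.0) for the other VDR and RXR intervals. Within 10 kb of a hotspot lay 139 of the regions (18.6%, 95% exact interval 15.9 to 21.6), against 1902 of the others (26.5%, 25.5 to 27.6); the share was 19.7% over all intervals and 25.8% over all VDR and RXR intervals. The difference was -7.90 points, the 2 intervals did not overlap, and the sign was the same on 16 of 20 chromosomes, from -21.5 points on chromosome 17 to 5.54 on chromosome 15.

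The regions without other factors did not stand apart from the average listed interval in this respect. Over all 34724 intervals the median distance was 58.8 kb (95% interval of the median 57.3 to 60.3), and this value and the share of 19.7% both lay inside the intervals of the 746 regions. The other VDR and RXR intervals were the ones nearer to hotspots. Their median distance was 45.8 kb with 1 other factor, 46.5 with 2, 37.2 with 3, 37.4 with 4, 31.5 with 5, 28.0 with 6 and 19.8 with all 7. Against the intervals with 1 or 2 other factors, none of which is a hotspot itself, the share of the regions within 10 kb was 18.6% against 22.6% (21.1 to 24.2), a difference of -3.97 points, and the exact intervals of the 2 shares overlapped slightly. RXR alone had 20.7% (18.6 to 22.9) and VDR alone 15.8% (14.1 to 17.7), so the regions with both receptors lay between the intervals with a single receptor, without being told apart from either by these intervals.

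At the other limits the regions were also below the other VDR and RXR intervals. Within 1 kb of a hotspot lay 23 of the 746 regions (3.08%, 95% exact interval 1.96 to 4.59), against 5.58% (5.06 to 6.14) of the other VDR and RXR intervals and 3.96% of all intervals. Within 50 kb lay 46.9% (43.3 to 50.6) of the regions, against 55.8% (54.7 to 57.0) of the others and 46.5% of all intervals. Within 100 kb lay 61.3% (57.7 to 64.8) of the regions, against 70.4% (69.3 to 71.5) of the others and 61.6% of all intervals. More than 1 Mb from any hotspot lay 28 of the regions (3.75%), against 189 of the others (2.64%). The share was 3.57% for the intervals with 1 or 2 other factors and 3.99% over all intervals. The nearest hotspot listed both receptors for 81.1% (78.1 to 83.8) of the regions and for 80.2% (79.3 to 81.1) of the others. It did so for 79.3% (77.3 to 81.3) of VDR alone, 80.1% (77.9 to 82.1) of RXR alone and 75.4% (75.0 to 75.9) of all intervals. Of the hotspots themselves, each counted once, 77.7% listed both.

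**Figure D3:**
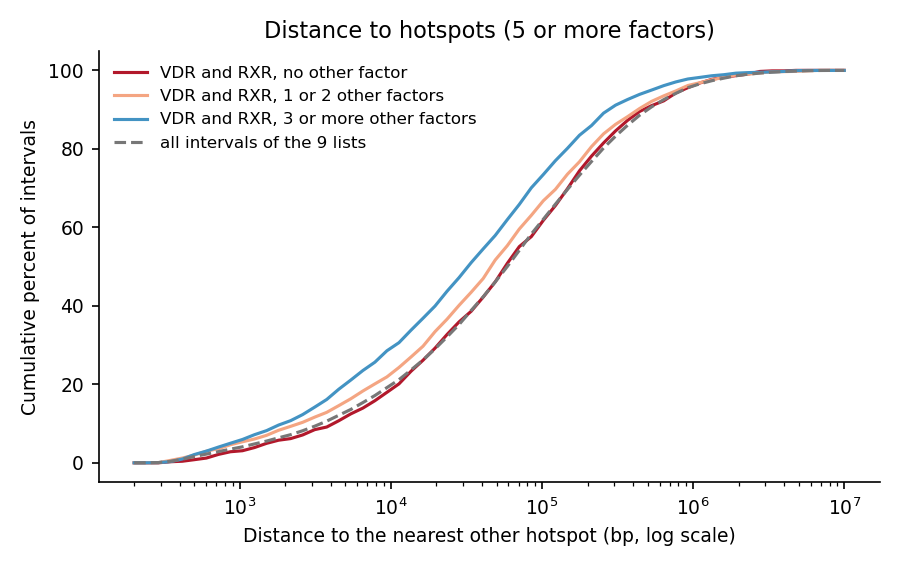
Cumulative percent of intervals against the distance to the nearest other hotspot, in bp on a log scale, for VDR and RXR intervals with no other factor, with 1 or 2 and with 3 or more, and for all intervals of the 9 lists (dashed). The curve of the regions without other factors follows that of all intervals, with medians of 57.0 and 58.8 kb, and the curve with 3 or more other factors lies to the left of both, with a median of 32.4 kb.

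When the other VDR and RXR intervals were weighted to the rows of the 746 regions, the difference in the share within 10 kb of a hotspot was -6.40 points. Of the 8 deciles of the VDR list that held at least 20 of the regions, the regions were lower in 6. Among the regions themselves, the share within 10 kb was 16.1% (95% exact interval 11.2 to 22.2) in the quartile group that came first in the VDR list, 17.1% (12.0 to 23.3) in the second, 22.0% (16.3 to 28.7) in the third and 19.3% (13.9 to 25.6) in the last. These 4 intervals overlapped.

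The 3 regions nearest to a hotspot lay 318, 320 and 389 bp from one. They were chromosome 1 from 62771846 to 62772245, beside a hotspot listed for 6 factors, the chromosome 3 region at the end of the lists, beside one with 5, and chromosome 4 from 56423762 to 56424161, beside one with 7. The 3 farthest lay 4254 kb away on chromosome 1 (99899314 to 99899713), 3323 kb away on chromosome 2 (18295020 to 18295419) and 2624 kb away on chromosome X (162937781 to 162938180). The farthest region on chromosome 2 was not isolated from binding, since an interval with KLF4, KLF5, VDR and RXR lay 2038 bp from it. All 6 of the nearest hotspots listed both receptors.

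Sites of the other factors were sparser around the regions than around the other VDR and RXR intervals. An interval with at least 1 of the 7 other factors lay within 1 kb of 73 of the 746 regions (9.79%, 95% exact interval 7.75 to 12.1), against 18.4% (17.5 to 19.3) of the other VDR and RXR intervals, 15.1% (13.8 to 16.5) of those with 1 or 2 other factors and 17.6% of all intervals. The difference from the other VDR and RXR intervals was -8.59 points. It was -5.26 points when KLF5 was counted neither in choosing the regions nor among the neighbours. In 15 cases (2.01%) such an interval overlapped the region, against 3.81% of the other VDR and RXR intervals and 4.60% of all intervals. ATF2 was listed at 8 of the 15 neighbours, KLF5 at 6, RXR at 4 and VDR at 3. Of all intervals, 33.3% listed ATF2, 49.3% KLF5, 34.8% RXR and 34.0% VDR. These shares include the 3786 intervals with a receptor and nothing else, which could not be such neighbours, so the 2 sets are not alike. No other factor was listed within 10 kb of 367 regions (49.2%), against 37.2% of the other VDR and RXR intervals. The share was 41.1% for those with 1 or 2 other factors and 42.7% over all intervals. Intervals with a single receptor were compared only for neighbours of any kind. Such a neighbour lay within 10 kb of 56.3% (52.7 to 59.9) of the regions. The values were 57.0% (54.3 to 59.6) for RXR alone and 51.9% (49.5 to 54.4) for VDR alone.

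Factor by factor, KLF5, which had the longest list, showed the widest gap in points. A KLF5 interval lay within 10 kb of 281 regions (37.7%, 95% exact interval 34.2 to 41.3), against 50.5% (49.4 to 51.7) of the other VDR and RXR intervals, and the share was lower on 18 of 20 chromosomes. For ATF2, a bZIP factor that binds cyclic AMP response elements and related sites, the shares were 22.0% (19.1 to 25.1) and 31.3% (30.3 to 32.4), also lower on 18 chromosomes. For KLF4 they were 17.7% (15.0 to 20.6) and 26.5% (25.5 to 27.5). All 9 factors, VDR and RXR included, were less often found near the regions than near the other VDR and RXR intervals. The smallest gap was 4.53 points, for FOSL2, which was lower on 12 of 20 chromosomes. Against the intervals with 1 or 2 other factors the differences were smaller, from -0.557 points for FOSL2 to -8.40 for KLF5. The share of those intervals lay inside the exact interval of the regions for FOSL2, ATF7 and cJun.

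Against all listed intervals the picture differed between factors. ATF2 was less frequent within 10 kb of the regions (22.0% against 31.3%), a difference of -9.28 points that had the same sign on 18 of 20 chromosomes. The difference was -6.15 points for ATF7, -4.64 for FOSL2 and -4.14 for KLF5. The AP-1 subunits cJun and JunB, unlike FOSL2, stood close to all intervals, cJun at 19.7% against 18.9% and JunB at 27.9% against 27.7%. KLF4 was at 17.7% against 20.1%. RXR lay within 10 kb of 34.9% of the regions against 32.5% of all intervals, and VDR of 34.5% against 31.3%; the value of all intervals lay inside the exact interval of the regions for cJun, JunB, KLF4 and both receptors. The values for ATF7, FOSL2 and ATF2 over all intervals lay above the exact intervals of the regions, and so did that for KLF5.

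**Figure D4:**
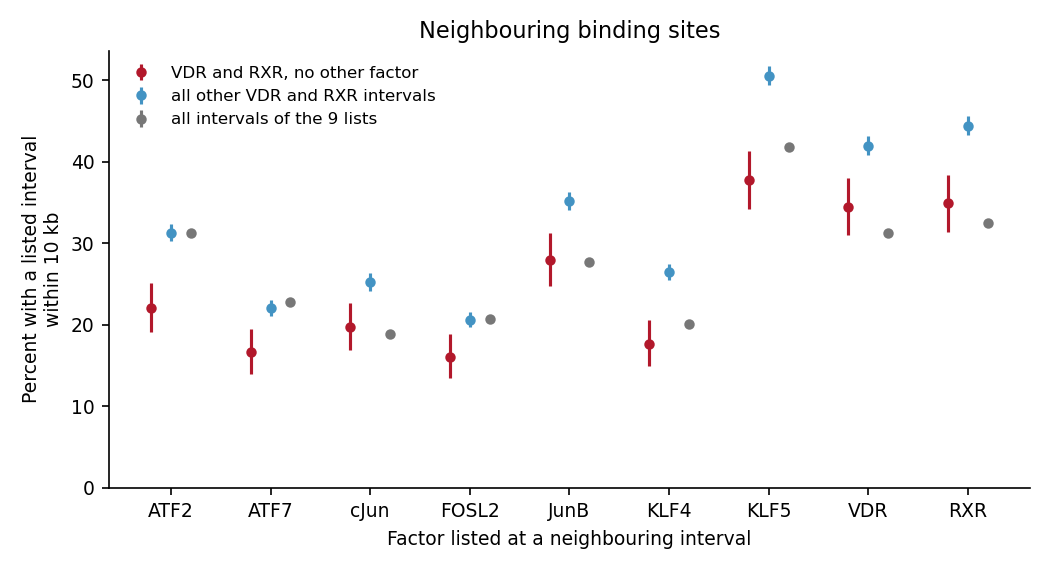
Percent of intervals with a neighbouring interval of each factor within 10 kb, with 95% exact intervals, for the VDR and RXR regions with no other factor (left of each triplet), all other VDR and RXR intervals and all intervals of the 9 lists. The regions lie below the other VDR and RXR intervals for each of the 9 factors, with the widest gap in points for KLF5 (37.7% and 50.5%).

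Another region without other factors lay within 10 kb of 26 of the regions (3.49%, 95% exact interval 2.29 to 5.07), against 235 of the other VDR and RXR intervals (3.28%, 2.88 to 3.72) and 2.29% of all intervals. The 26 formed 13 groups of 2, and no group was larger. An interval with both receptors, of either kind, lay within 10 kb of 196 regions (26.3%, 23.1 to 29.6) and of 34.4% (33.3 to 35.5) of the other VDR and RXR intervals. For the regions, this nearest receptor neighbour was itself without other factors in 25 of 196 cases (12.8%, 8.43 to 18.3), against 168 of 2463 (6.82%, 5.86 to 7.89) for the others. Pairs of neighbouring regions enter this count from both sides, so its counting interval is too narrow. The regions made up 9.43% of all VDR and RXR intervals, a share inside the interval of 8.43 to 18.3. The first 3 groups in order of position lay on chromosome 2, from 44129063 to 44130414, from 61011643 to 61020878 and from 134874494 to 134875503. In the third, the 2 midpoints were 610 bp apart and the nearest hotspot, 4.03 kb away, listed neither receptor.

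The share of regions without other factors was compared between chromosomes. On chromosomes 1 to 19 together they were 723 of 7778 VDR and RXR intervals (9.30%, 95% exact interval 8.66 to 9.96), and single autosomes ranged from 6.15% on chromosome 16 (3.98 to 9.02) to 12.0% on chromosome 4 (8.67 to 16.0). On chromosome X they were 23 of 136 (16.9%, 11.0 to 24.3), 7.62 points above the autosomes, and the 2 exact intervals did not overlap. The share on X was the highest of the 20 chromosomes compared, but its exact interval overlapped those of most single autosomes. Chromosome X held 3.08% (1.96 to 4.59) of the regions, against 1.58% of the other VDR and RXR intervals and 1.93% of all intervals. A higher share on X was not particular to the regions. Intervals with 2 other factors were 25.7% of the VDR and RXR intervals on X and 17.1% on the autosomes. Those with 1 other factor were 22.8% and 18.1%, and those with 3 were 16.2% and 16.5%. When KLF5 was not counted in the rule, the regions were 37.5% (29.4 to 46.2) of these intervals on X and 23.1% (22.2 to 24.1) on the autosomes. The gap was then 14.4 points, but the ratio was 1.62, against 1.82 when KLF5 was counted.

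Chromosome X also had few intervals with many factors. Hotspots made up 7.46% of its 670 intervals, the lowest share of the 20 chromosomes, where chromosome 19 had the highest, 20.8%. The VDR and RXR intervals on X carried 2.09 other factors on average, against 2.64 to 3.40 on the autosomes. With 5 or more other factors listed there were 10 of the 136. The median distance to a hotspot was 722 kb for the 23 regions on X and 298 kb for the other VDR and RXR intervals there. The part of this sparse binding in the higher share of regions on X was not tested.

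On chromosome 10 the lists were dense in 3 windows of 1 Mb with over 100 intervals each, which held 866 intervals in all. Of the 746 regions 6 lay there (0.804%), against 135 of the other VDR and RXR intervals (1.88%) and 2.49% of all intervals. Across the genome, 552 windows of 1 Mb held at least 1 of the regions, and 413 of these windows held exactly 1. The most in any window was 5, in 2 windows of chromosome 10. Matching counts for the other VDR and RXR intervals are not given here.

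**Figure D5:**
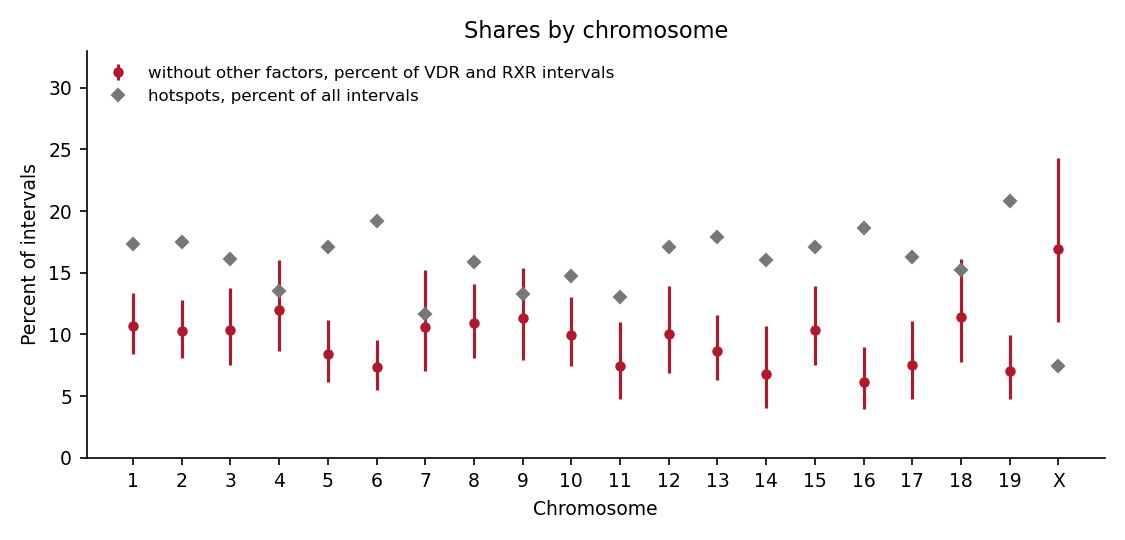
For each chromosome, the regions without other factors as a percent of VDR and RXR intervals, with 95% exact intervals, and hotspots as a percent of all intervals. Chromosome X has the highest share of regions without other factors, 16.9%, and the lowest share of hotspots, 7.46%.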

How the data were processed

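ChIP-seq peak lists of 9 factors, 1 library each, were used; the other 21 of the 30 labelled samples were not analysed here. FastQC, Bowtie and HOMER are the tools, and mm9 the build, named per the submitters' processing notes. The sources used here do not give their versions and roles, the peak threshold or how the common set of intervals was made. The authors deposited intervals of 400 bp with chromosome, start and end and no value, so depth is unknown. Intervals on chromosome Y (2) were left out. The closest pair of midpoints was 201 bp apart.

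Intervals were matched by identical coordinates. Row percentile is the row number divided by the length of the list. Shares carry exact Clopper-Pearson intervals, and medians carry intervals from binomial ranks, both at 95%. No p-value was computed, since factors had no replicate. Regions named are the first and last 3 in the VDR list, the 3 nearest to and farthest from a hotspot, and the first 3 groups. The calculations were tested on simulated lists. The members and the comparisons were chosen with earlier results of these data known. Python 3.11.15, numpy 2.4.6, pandas 2.3.3, scipy 1.17.1 and matplotlib 3.10.9 were used. With no mm9 genome used here, no sequence or gene is given.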

Additional observations from a re-analysis of the deposited data

How the results depend on the processing

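The count of regions without other factors and the differences in row, hotspot distance, neighbours and chromosome X share kept their direction under the alternatives run. Leaving out each of the 7 other lists in turn gave 754 to 1848 regions, row differences of 29.2 to 36.5 points (VDR list) and 29.4 to 37.0 (RXR list), differences within 10 kb of a hotspot of -8.83 to -4.77 points, median distances of 48.0 to 57.5 kb, differences in other factors within 1 kb of -8.59 to -5.26 points, chromosome X differences of 6.77 to 14.4 points, and 26 to 157 regions with another such region within 10 kb. The KLF5 list gave the extreme on its side each time. Without JunB, 40 regions had such a neighbour. For the differences within 1 kb, the list left out was also not counted among the neighbours. Leaving out each chromosome gave 675 to 729 regions, row differences of 35.3 to 36.6 and 35.7 to 37.1 points, -8.67 to -6.78 points, 55.1 to 59.3 kb, -9.66 to -7.87 points, 7.42 to 7.74 points and 20 to 26 regions. Against intervals with 1 or 2 other factors, the row differences were 21.9 and 22.3 points and the hotspot difference -3.97. The hotspot difference was -2.50 points at 1 kb and -51.1 when hotspots counted at distance 0 from themselves, by construction. It was -1.05 against all intervals, a comparison chosen after seeing the data, like weighting by row (-6.40) or chromosome (-7.01). The difference in other factors was -1.84 points within 400 bp, -14.0 within 5 kb and -12.0 within 10 kb. Counting overlapping neighbours left 731 regions, and counting those within 1 kb left 673. Unknown depth limits every absence from a list. No paired analysis was possible because each factor used here had 1 library.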

Other observations

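Several of these traits were shared by other pairs of factors that met without the remaining 7. The counts that follow include VDR with RXR itself, which has each trait. Of the 23 pairs with at least 50 such intervals, 23 had a longer median distance to a hotspot than the intervals where the same pair met other factors, and 22 had a lower share within 10 kb of one. For cJun with JunB, 12.6% of the 435 intervals without other factors lay within 10 kb of a hotspot, against 24.3% of the rest. For KLF4 with KLF5 the shares were 20.1% of 353 and 30.1%. KLF5 with RXR was close to even, at 27.7% of 629 and 28.0%. The share on chromosome X was higher in 22 of the 23 pairs; it was 4.26% against 1.40% for JunB with RXR and 1.37% against 0.620% for ATF2 with ATF7. The pairs share lists and the hotspots, so these counts are a description.

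The median distance to the nearest hotspot was 57.0 kb (95% interval of the median 49.3 to 67.9) for both receptors, 72.4 kb (64.5 to 79.5) for VDR alone and 57.3 kb (50.2 to 64.9) for RXR alone; the intervals of all 3 overlapped at 64.5 to 64.9. The VDR list held 48 VDR-alone intervals in its first decile (2.93%), and the RXR list held 17 RXR-alone intervals in its own (1.21%).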
